A study of Danio rerio with 16 samples.

Results

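The period genes of zebrafish, per1a, per1b, per2 and per3, encode the period proteins of the circadian clock. Their 4 Ensembl identifiers were chosen by gene name and not by a threshold on measured values, though earlier results of these data were known. They are 4 of the 32105 genes in the count tables. The identifiers are ENSDARG00000056885 for per1a, ENSDARG00000012499 for per1b, ENSDARG00000034503 for per2 and ENSDARG00000010519 for per3. The table of gene names used here lists PER1 for both of the first identifiers, PER2 for the next and PER3 for the last. All 4 genes had reads in every library and passed the filter on low counts.

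RNA was taken from whole zebrafish larvae at 5 days after fertilisation and sequenced as 16 strand-specific, ribosomal RNA-depleted libraries, 4 for each of 4 groups. Control larvae were kept in 0.1% DMSO, the solvent, from hour 4 to hour 120 after fertilisation. Exposed larvae received PCB153 over the same hours, at 0.1, 1 or 10 µM. The DMSO percentage is given for the control larvae only. PCB153, a polychlorinated biphenyl that persists in the environment, belongs to the congeners that do not act like dioxin. The labels give no strain, clutch, number of larvae per library, light schedule or hour of collection. The series describes the libraries of a group as biological replicates. Since nothing shows whether they came from separate clutches, each p-value measures the spread between these libraries, which may be partly technical.

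Period proteins form the negative limb of the clock. CLOCK and BMAL proteins bind E-box sequences and switch on the period and cryptochrome genes, and the period proteins, joined to cryptochromes, then enter the nucleus and inhibit CLOCK and BMAL. Casein kinase 1 marks period proteins for degradation, which releases the block and lets a new cycle begin. Zebrafish carry a duplicated per1 gene, and most of their tissues hold clocks that respond to light directly. In this fish per2 is known as a gene switched on by light, and the per3 promoter drives a widely used reporter of rhythm.

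Libraries held between 8069225 and 15531744 reads assigned to genes. Between 24579 and 25936 genes per library had at least 1 read. Of the uniquely aligned reads, those in no counted feature made up 31.4% to 35.5% in DMSO libraries, 36.2% to 38.6% at 0.1 µM, 35.1% to 40.4% at 1 µM and 31.7% to 33.3% at 10 µM. The share of a library's entries listed as not uniquely aligned was 26.9% to 33.5% in DMSO and 28.1% to 57.7% at 0.1 µM. It was 31.3% to 40.7% at 1 µM and 36.6% to 41.5% at 10 µM, the last without overlap with DMSO. No fit used this share as a covariate. The library 1 µM replicate 1 had the fewest reads in genes. Markers of skin (krt4), exocrine pancreas (prss1), liver (fabp10a), neurons (ELAVL3) and lens (CRYAA) were all present, as the whole-animal label requires. Of these 5 marker genes none had a count of 0 in any library, and their summed level ranged from 8242 to 9310.1 CPM (read counts scaled to a common library size) in DMSO, 6953 to 8524 at 0.1 µM, 6151 to 7517 at 1 µM and 6652 to 6917 at 10 µM. Most of this sum was krt4, whose DMSO mean was 7361 CPM, so the sum says little about the other markers.

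All 4 period genes were higher in larvae exposed to PCB153 than in solvent controls at each of the 3 concentrations. The rise was steepest for per1a, which reached between 3.69 and 4.68 times its DMSO level. It was intermediate for per1b and per2 and smallest for per3, which reached between 1.36 and 1.63 times its control level. At each concentration all 4 exposed libraries lay above all 4 DMSO libraries for every period gene. Most of the rise was already present at 0.1 µM, the lowest concentration used.

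**Figure D1:**
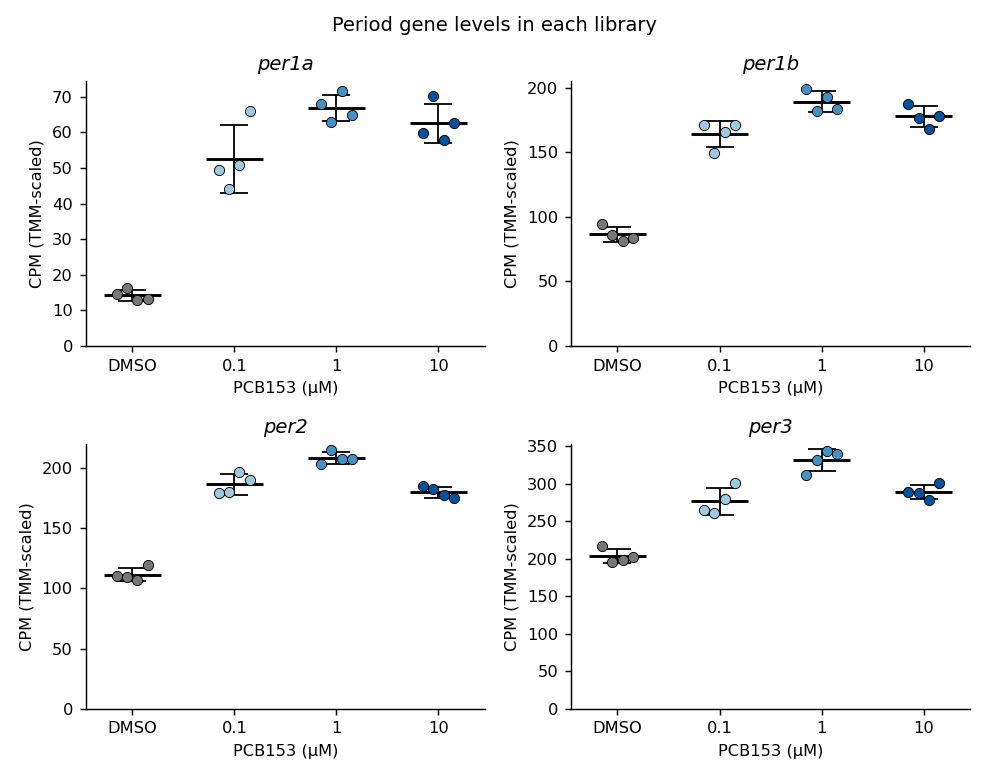
Level of each period gene in CPM (vertical axes, which start at 0) in each of the 16 libraries (points), by group, with the mean and SD of 4 libraries. In every panel the DMSO libraries lie below all exposed libraries, and for per1a they lie between 13.1 and 16.3 CPM against 44.0 to 71.5 CPM with PCB153.

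Levels are given in CPM, that is, reads of a gene per 1000000 reads assigned to genes, with library sizes scaled by TMM factors. They are not divided by gene length, so a level of one period gene is not compared with that of another. In whole larvae, fewer cells of a type and less RNA per cell cannot be told apart. Larvae were taken at a single age and an hour not given. A change of level therefore cannot be told apart from a shift in daily rhythm or in collection hour between groups. Fold changes, their standard errors (SE) and 95% confidence intervals come from edgeR's quasi-likelihood test. A gene is described as having risen or fallen where its Benjamini-Hochberg adjusted p over the 21372 genes tested was under 0.05. The 3 concentrations were compared with the same 4 DMSO libraries, so these comparisons are not independent of each other.

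The per1a gene, a duplicate of per1, was read 196 to 1022 times per library. In DMSO replicates 1 to 4 its level was 14.5, 16.3, 13.1 and 13.2 CPM. At 0.1 µM it was 49.3, 44.0, 50.8 and 66.1 CPM. The lowest of these was well above every control, and replicate 4 was the highest. At 1 µM the level was 67.9, 63.0, 71.5 and 64.9 CPM. At 10 µM it was 59.7, 70.3, 57.9 and 62.5 CPM. The libraries at 1 and 10 µM covered overlapping ranges. Group means were 14.3 ± 1.49 CPM in DMSO, 52.6 ± 9.46 CPM at 0.1 µM, 66.8 ± 3.71 CPM at 1 µM and 62.6 ± 5.45 CPM at 10 µM (SD, n = 4 each). The order of the means was therefore DMSO, 0.1, 10 and 1 µM. All DMSO libraries lay below all exposed libraries, while the ranges of the exposed groups overlapped each other. By edgeR's quasi-likelihood test with Benjamini-Hochberg adjustment, the log2 fold change against DMSO was 1.88 ± 0.11 (SE) at 0.1 µM (adjusted p = 3.25e-09), 2.23 ± 0.11 at 1 µM (adjusted p = 1.5e-10) and 2.13 ± 0.11 at 10 µM (adjusted p = 1.96e-10).

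The other per1 duplicate, per1b, had between 1222 and 2809 reads per library. DMSO replicates 1 to 4 held 94.7, 85.9, 81.5 and 83.9 CPM. With 0.1 µM the replicates held 171, 149.5, 165 and 171 CPM. No exposed library came near the control range. With 1 µM the values were 199, 182, 192 and 183 CPM. With 10 µM they were 187, 177, 168 and 178 CPM. All 1 µM libraries lay above all 0.1 µM libraries, whereas those at 10 µM overlapped both. Means were 86.5 ± 5.77, 164 ± 10.2, 189 ± 8.23 and 178 ± 7.93 CPM in DMSO and at 0.1, 1 and 10 µM (SD, n = 4 each). In the edgeR test per1b rose by 0.93 ± 0.06 on the log2 scale at 0.1 µM (adjusted p = 1.98e-09), by 1.13 ± 0.06 at 1 µM (adjusted p = 3.55e-11) and by 1.04 ± 0.06 at 10 µM (adjusted p = 7.57e-11). These are 1.90, 2.18 and 2.05 times the control level.

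The light-induced gene per2 had between 1521 and 3182 reads per library. Its DMSO level was 110.1, 109, 107 and 119 CPM in replicates 1 to 4. Replicates at 0.1 µM gave 179, 179.8, 197 and 189.6 CPM. The control and exposed ranges were far apart. Replicates at 1 µM gave 203, 215, 207 and 207 CPM, the narrowest spread relative to the mean in any group of a period gene. Replicates at 10 µM gave 185, 183, 177 and 175 CPM. The 10 µM libraries were all below those at 1 µM and overlapped those at 0.1 µM, so per2 is the only member whose mean at 10 µM (179.8 ± 4.54 CPM) was below its mean at 0.1 µM (186 ± 8.59 CPM). The DMSO mean was 111 ± 5.47 CPM and the 1 µM mean 208 ± 4.87 CPM (SD, n = 4 each). By the edgeR test the rise over DMSO was 0.74 ± 0.05 at 0.1 µM (adjusted p = 3.01e-09), 0.90 ± 0.05 at 1 µM (adjusted p = 7.32e-11) and 0.69 ± 0.05 at 10 µM (adjusted p = 3.04e-09), on the log2 scale.

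The rhythm reporter gene per3 was the most deeply read, with 2458 to 5211 reads per library. In DMSO replicates 1 to 4 it stood at 216, 196, 198 and 202 CPM. At 0.1 µM it stood at 265, 261, 279 and 301 CPM. As a ratio, the gap to the controls was narrower than for the other members, but no library crossed it. At 1 µM the values were 311, 332, 343 and 339.6 CPM. At 10 µM the values were 289, 287, 278 and 301 CPM. All libraries at 1 µM were above all those at 0.1 and at 10 µM, and those last groups overlapped. Means were 203 ± 9.23, 276 ± 18.0, 332 ± 14.2 and 289 ± 9.42 CPM in DMSO and at 0.1, 1 and 10 µM (SD, n = 4 each). In the edgeR test per3 rose by 0.44 ± 0.06 on the log2 scale at 0.1 µM (adjusted p = 3.25e-05), by 0.71 ± 0.06 at 1 µM (adjusted p = 1.53e-08) and by 0.51 ± 0.06 at 10 µM (adjusted p = 1.37e-06).

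The count of period genes that rose, 4 of 4 at each concentration, stands against a background that grew with concentration. At 0.1 µM, 3.43% of the 21372 genes tested passed the threshold in either direction and 2.3% rose, and in 5.03% all exposed libraries lay above all controls. At 1 µM the corresponding shares were 12.4%, 7.13% and 9.75%. At 10 µM they were 18.3%, 9.9% and 13.2%. The median log2 fold change of the 4 period genes was 0.83 at 0.1 µM, 1.01 at 1 µM and 0.86 at 10 µM, while the median over all genes tested was within 0.01 of 0 in each comparison. Ranked by p among all genes tested, per1b was at place 2, 2 and 5 at 0.1, 1 and 10 µM, per2 at place 5, 3 and 21, per1a at place 6, 7 and 11, and per3 at place 36, 15 and 87. Ranked by the size of the rise, per1a was at place 5, 2 and 5 in these comparisons, and per3 at place 689, 333 and 872. By the same ranking per1b was at place 74, 69 and 162, and per2 at place 156, 154 and 459.

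**Figure D2:**
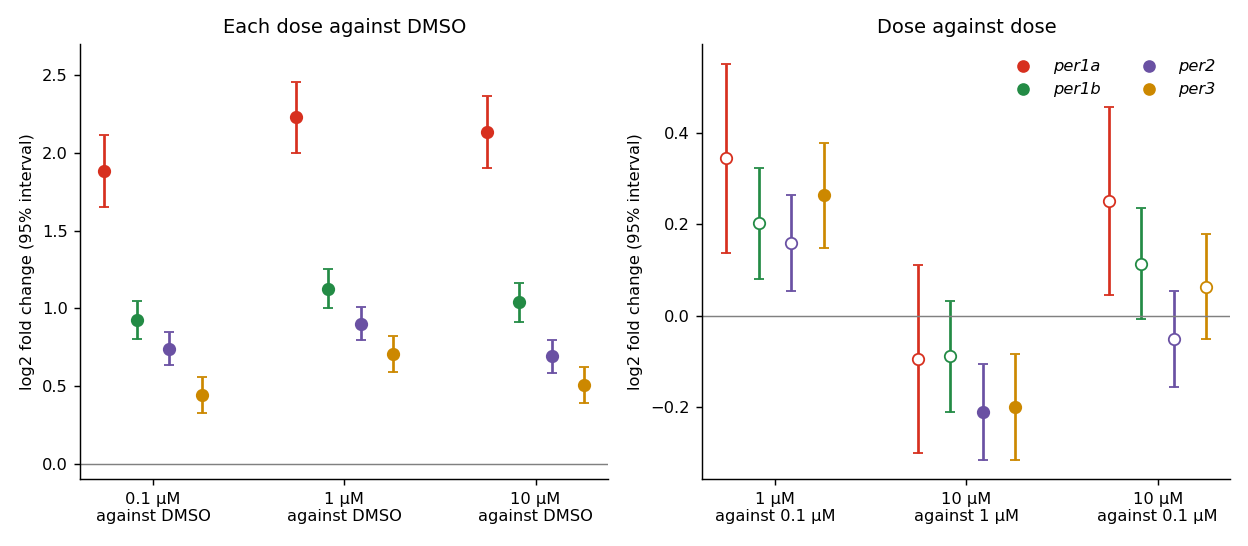
Log2 fold change (vertical axes) of the 4 period genes with 95% confidence intervals from edgeR, for each concentration against DMSO (left) and between concentrations (right), with filled points for adjusted p under 0.05. Against DMSO the per1a values, 1.88 to 2.23, lie above those of the other members, while values between concentrations run from -0.21 to 0.34. The intervals are not adjusted for the number of genes, so an interval can exclude 0 at an open point.

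Among exposed larvae each difference between concentrations was smaller than that gene's step from DMSO to 0.1 µM, with the differences of per3 nearest to its step. From 0.1 to 1 µM only per3 rose in the edgeR test, by 0.26 ± 0.06 on the log2 scale (95% confidence interval 0.15 to 0.38, edgeR adjusted p = 0.0302). For per1a the difference was 0.34 (interval 0.14 to 0.55, edgeR adjusted p = 0.0926), for per1b 0.20 (interval 0.08 to 0.32, adjusted p = 0.0885) and for per2 0.16 (interval 0.05 to 0.26, adjusted p = 0.118). The 4 estimates have one sign, and in 3 of the 4 genes the 1 µM libraries did not overlap those at 0.1 µM. DESeq2 called all 4 genes in this comparison. Its share over all genes is not given here, so that count is not read against a background. Over the 23 alternative fits, DESeq2 among them, 7 to 630 of all genes were called. Across all genes tested with edgeR 0.973% passed the threshold in this comparison, and in 6.58% the groups did not overlap. The per3 call was lost in 6 of 23 alternative fits, among them that of the 8 compared libraries alone (adjusted p = 0.159), those without 0.1 µM replicate 2 or 3 (adjusted p = 0.104 and 0.0736) and those without 1 µM replicate 3 or 4 (adjusted p = 0.0821 and 0.0843). Without 0.1 µM replicate 4, the library with the highest per1a level of its group, per1a differed by 0.47 between 0.1 and 1 µM (edgeR adjusted p = 0.00701).

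From 1 to 10 µM per2 fell by 0.21 ± 0.05 on the log2 scale (edgeR adjusted p = 0.017) and per3 fell by 0.20 ± 0.06 (edgeR adjusted p = 0.0349). In both genes all 10 µM libraries were below all 1 µM libraries. The duplicates per1a and per1b differed by -0.09 each, with intervals of -0.30 to 0.11 and -0.21 to 0.03 (edgeR adjusted p = 0.633 and 0.401). In this comparison 6.15% of all genes passed the threshold and 13.7% had groups that did not overlap. Neither call was stable. With the share of reads outside genes added to the fit, per2 differed by -0.14 (edgeR adjusted p = 0.607) and per3 by -0.26 (edgeR adjusted p = 0.274). That share was 35.1% to 40.4% at 1 µM and 31.7% to 33.3% at 10 µM, without overlap. Such a fit cannot separate it from concentration. Without 1 µM replicate 2 the adjusted p was 0.0564 for per2 and 0.075 for per3, and without 10 µM replicate 4 it was 0.0525 for per2. The per3 call was also lost without the filter on low counts (adjusted p = 0.056), without 1 µM replicate 3 or 4 and without 10 µM replicate 1, 2 or 3, where its adjusted p lay between 0.0751 and 0.0886 in the fits that left out a library.

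Comparing 10 with 0.1 µM, none of the 4 period genes passed the threshold in edgeR or in DESeq2, and 1 of them, per1a, had an unadjusted p under 0.05 in edgeR. The differences were 0.25 for per1a (interval 0.04 to 0.46), 0.11 for per1b (interval -0.01 to 0.23), -0.05 for per2 (interval -0.16 to 0.05) and 0.06 for per3 (interval -0.05 to 0.18), on the log2 scale. All 4 genes had overlapping groups. Across all genes tested this was the comparison with the largest share called, 21.4%, and 21.2% of genes had groups that did not overlap. Without 0.1 µM replicate 4 the per1a difference was 0.38 (edgeR adjusted p = 0.0014).

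The period genes did not rise by equal amounts. The log2 ratio of the reads of a pair of period genes was taken within each library, where depth and scaling cancel. Because lengths were not used, only its change between groups is read. The 12 exposed libraries were compared with the 4 DMSO libraries by a 2-sided exact permutation test over 1820 arrangements, with Benjamini-Hochberg adjustment over the 6 pairs. The pairs share genes and so are not independent of each other.

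All 3 ratios with per1a shifted toward per1a. In DMSO replicates 1 to 4 the log2 ratio of per1a to per2 reads was -2.92, -2.75, -3.03 and -3.17. At 0.1 µM it was -1.86, -2.03, -1.95 and -1.52, at 1 µM -1.58, -1.77, -1.53 and -1.68, and at 10 µM -1.63, -1.38, -1.61 and -1.48. No exposed library reached the control range. The mean moved from -2.97 ± 0.18 (SD, n = 4) to -1.67 ± 0.20 (SD, n = 12), a difference of 1.30, in the same direction in 12 of 12 exposed libraries (exact permutation p = 0.000549, adjusted p = 0.000824). That p is the smallest the test can give. The difference was 1.05 for per1a over per1b and 1.52 for per1a over per3, with the same exact permutation p and all 12 exposed libraries beyond the controls. Reads of per1a thus went from 3.44 ± 0.378% of all reads of the 4 genes in DMSO to 7.70 ± 0.946% at 0.1 µM, 8.40 ± 0.399% at 1 µM and 8.83 ± 0.673% at 10 µM (SD, n = 4 each).

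Among the other members the order was per1b, then per2, then per3. The log2 ratio of per1b to per3 rose from -1.23 ± 0.05 (SD, n = 4) to -0.75 ± 0.09 (SD, n = 12), and all 12 exposed libraries lay above the controls (difference 0.48, exact permutation p = 0.000549, adjusted p = 0.000824). The ratio of per2 to per3 rose by 0.23, with 11 of 12 exposed libraries above all controls (exact permutation p = 0.0011, adjusted p = 0.00132). The ratio of per1b to per2 rose by 0.25, with 9 of 12 above (exact permutation p = 0.0022, adjusted p = 0.0022). Taken at a single concentration, the per1b to per2 ratio differed from DMSO by 0.18, 0.23 and 0.35 at 0.1, 1 and 10 µM. At 0.1 and 1 µM its adjusted p was 0.0857 and 0.0571 (exact permutation). The per2 to per3 ratio differed by 0.30, 0.20 and 0.18, the last with an adjusted p of 0.0571 (exact permutation). With 4 libraries against 4 this test has 70 arrangements, and its smallest possible p is 0.0286 before adjustment. Reads of per3 made up 48.9 ± 0.854% of the 4 genes' reads in DMSO and 40.7 ± 0.681%, 41.7 ± 1.25% and 40.7 ± 0.885% at 0.1, 1 and 10 µM, although per3 itself rose.

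**Figure D3:**
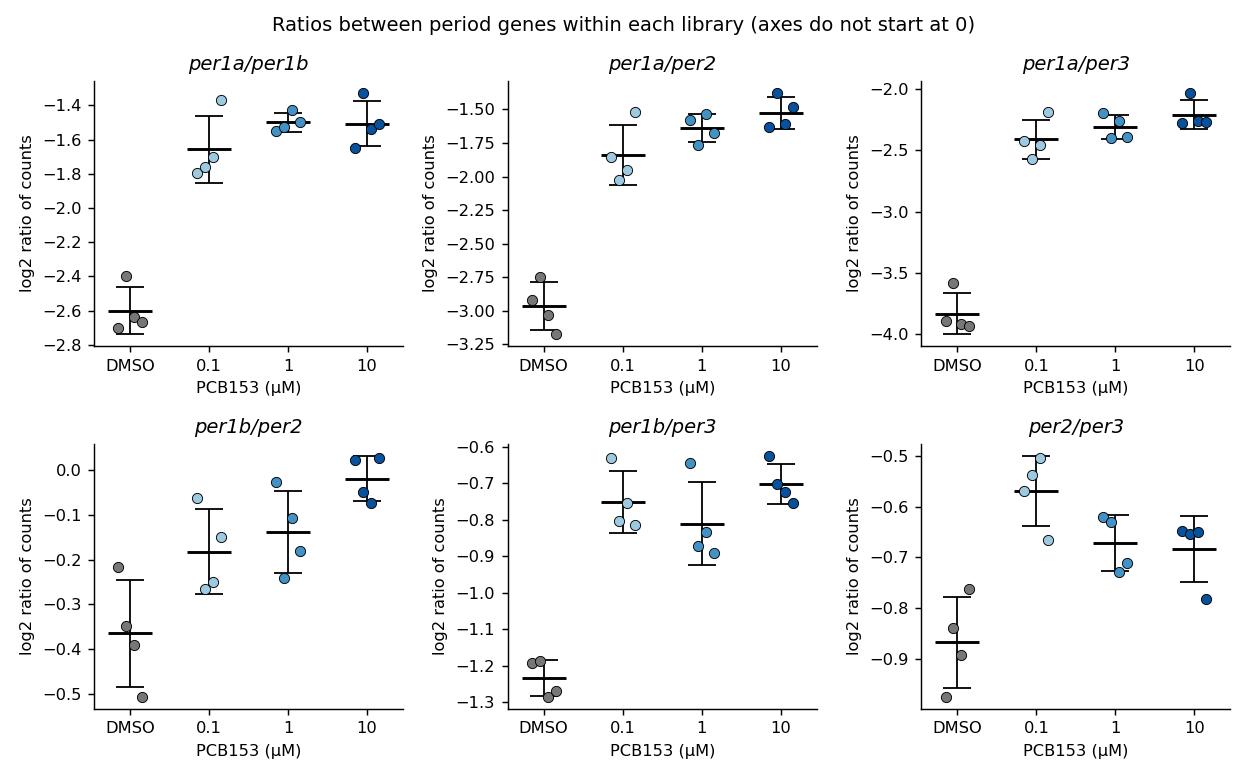
Within-library log2 ratio of the reads of each of the 6 pairs of period genes (vertical axes, which do not start at 0) in the 16 libraries (points) by group, with the mean and SD of 4 libraries. The exposed groups have higher means than DMSO in every panel. Over the 12 exposed libraries together the difference is largest for per1a over per3 (1.52) and smallest for per2 over per3 (0.23). At 0.1 µM alone it is smallest for per1b over per2 (0.18).

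Relative to the mean, the widest range of spread between libraries of a group was that of per1a. Coefficients of variation of CPM were 5.55% to 18.0% for per1a across the 4 groups, 4.35% to 6.68% for per1b, 2.34% to 4.91% for per2 and 3.26% to 6.49% for per3. The biological coefficient of variation fitted by edgeR was 0.0963, 0.0653, 0.0584 and 0.0648 in that order, against 0.0847 for all genes in common, so that per1a lay above the common value and the others below it. Counting noise alone would give a coefficient of 7.14% at the lowest count of per1a and 2.02% to 2.86% at those of the others. The 18.0% of per1a was at 0.1 µM, where replicate 4 held 66.1 CPM and the others 44.0 to 50.8 CPM. Whether the 4 genes moved together within a group was not tested. Relative to their own group means, the 4 genes all lay below in 3 of the 16 libraries (DMSO replicate 3, 0.1 µM replicate 2 and 10 µM replicate 3). They all lay above in 1 (0.1 µM replicate 4). In the other 12 libraries some were above and others below.

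The summed level of the 4 genes was 415 ± 15.7 CPM in DMSO, 679.5 ± 39.7 CPM at 0.1 µM, 795 ± 13.8 CPM at 1 µM and 709 ± 18.7 CPM at 10 µM (SD, n = 4 each). The mean share of reads outside genes was 33.2 ± 1.92% in DMSO, 37.0 ± 1.12% at 0.1 µM, 37.3 ± 2.52% at 1 µM and 32.2 ± 0.746% at 10 µM (SD, n = 4 each). With these shares added as a covariate to the edgeR fit all 4 genes were called against DMSO at each concentration, with log2 fold changes of 2.02, 0.97, 0.69 and 0.49 at 0.1 µM for per1a, per1b, per2 and per3. The shares did not overlap between DMSO and 0.1 µM, and overlapped only in part at 1 µM (35.1% to 40.4% against 31.4% to 35.5%). At these concentrations fits with this covariate cannot separate it from exposure. The 10 µM range, 31.7% to 33.3%, lay within that of DMSO. Of all libraries 1 µM replicate 1 had the fewest reads in genes, 1 µM replicate 2 the highest share outside genes and 0.1 µM replicate 3 the highest share not uniquely aligned. Without these 3 libraries the values at 1 µM were 2.26, 1.12, 0.90 and 0.75 and all 4 remained called. Some tissue markers moved too. None of the 5 was called at 0.1 µM by edgeR or DESeq2 (2 had an unadjusted p under 0.05 in edgeR), and 1 was called without 0.1 µM replicate 4. At 1 µM krt4 of skin fell by 0.38 and fabp10a of liver fell by 0.27 (edgeR adjusted p = 0.0036 and 0.0258). With the covariate 0 of these 2 falls at 1 µM passed the threshold, and 1 did without DMSO replicate 2 or 3 and without 1 µM replicate 1, 3 or 4. Leaving out the 3 libraries named above together also left 1. At 10 µM krt4 fell by 0.53 and fabp10a fell by 0.33 (adjusted p = 9.7e-05 and 0.00507). The other 3 markers were not called at 1 or 10 µM. The median log2 fold change of the 5 was -0.11 at 1 µM and 0.08 at 10 µM. In 2 of 23 alternative fits 1 marker was called as rising at 10 µM. The part of the markers in the period gene result was not tested.

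The genes whose pattern over the 16 libraries was most like that of each member were found from log2 CPM (prior count 2) centred on the DMSO mean. Likeness is the root mean square difference in log2 units over 16 libraries, among 20305 genes with a mean of at least 1 CPM. It is a description and carries no test. The nearest to per1a was NR1D1, a nuclear receptor that represses BMAL genes, at 0.349, with log2 fold changes of 1.41, 1.80 and 1.83 at 0.1, 1 and 10 µM. Next came FKBP5 ENSDARG00000028396, a co-chaperone of steroid receptors, at 0.563, and SLC16A6 ENSDARG00000060246, of the monocarboxylate transporter family, at 0.574. No gene came close to per1a in the way that genes did to the other members, whose nearest lay at 0.109 or less. The measure takes in the size of a change as well as its shape. Since per1a had one of the largest rises of all genes, few genes could lie near it.

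For per1b the nearest was ciartb, which belongs to a family of repressors of CLOCK and BMAL known from mouse, at 0.109. It rose by 0.98, 1.18 and 1.03 on the log2 scale at 0.1, 1 and 10 µM. KLF3 ENSDARG00000015495, a zinc finger repressor, followed at 0.133 and si:dkey-18a10.3 at 0.134, whose place CRY1 ENSDARG00000011583 took with a prior count of 0.5. For per2 the nearest was ENSDARG00000022185, for which the name table gives no symbol, at 0.0921, then the cryptochrome CRY2 at 0.111 and dbpa, a PAR bZIP transcription factor of clock output, at 0.135. The CRY2 values were 0.77, 0.88 and 0.89, so unlike per2 it was not lower at 10 than at 1 µM. For per3 the nearest was usp2b, a ubiquitin protease gene, at 0.0708, with log2 fold changes of 0.46, 0.75 and 0.55. HIVEP1, a zinc finger transcription factor, lay at 0.0912 and LRRC8D, a subunit of volume-regulated anion channels, at 0.103, whose place sox13 took with a prior count of 0.5. The other 10 of the 12 nearest genes were the same with either prior count. Between members the difference was 0.210 for per2 and per3, 0.240 for per1b and per2, 0.421 for per1b and per3, and 0.909 to 1.32 for per1a with each of the others.

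**Figure D4:**
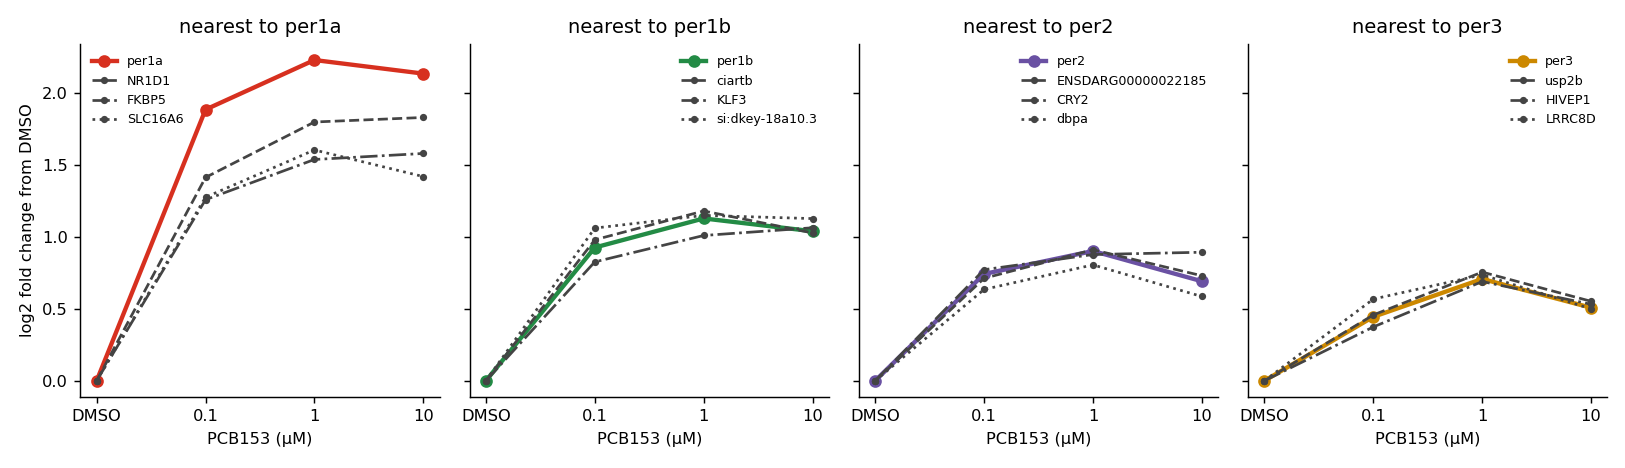
Log2 fold change from DMSO (vertical axis) at 0.1, 1 and 10 µM for each period gene (coloured line) and the 3 genes nearest to it in pattern (grey lines). In the per2 and per3 panels the lines lie close together, with root mean square differences of 0.0708 to 0.135, while the genes nearest to per1a run below it.

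The partners of the period proteins were taken from lists of clock genes. Over all genes tested, 3.43% were called in either direction and 2.3% rose at 0.1 µM, 12.4% and 7.13% at 1 µM, and 18.3% and 9.9% at 10 µM. Of the 6 activators, the CLOCK, NPAS2 and BMAL genes that switch on the period genes, none was called at 0.1 µM by edgeR or DESeq2 (2 had an unadjusted p under 0.05 in edgeR). At 1 µM 1 rose, and at 10 µM 1 rose and 1 fell, against 12.4% and 18.3% of all genes called. With 6 genes these counts cannot show whether the list differs from all genes. The gene that rose was npas2, a CLOCK relative, by 0.29 ± 0.08 on the log2 scale at 1 µM (edgeR adjusted p = 0.0215) and by 0.28 ± 0.08 at 10 µM (edgeR adjusted p = 0.0194). The 1 µM call was lost in 6 of 23 alternative fits. These left out DMSO replicate 1, 3 or 4, left out 1 µM replicate 2, or added the fraction of reads falling outside genes. The last left out 1 µM replicates 1 and 2 and 0.1 µM replicate 3 together. The 10 µM call was lost without DMSO replicate 1 or 4 and without 10 µM replicate 1, 2 or 3. CLOCK ENSDARG00000003631 had log2 fold changes of 0.14, 0.16 and 0.15 at 0.1, 1 and 10 µM, none of them called. The gene that fell at 10 µM was bmal2, a partner of CLOCK, by -0.48 ± 0.10 (edgeR adjusted p = 0.00204), named here after its value was seen. The median log2 fold change of the activators was 0.12, 0.11 and -0.00 at the 3 concentrations.

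Cryptochromes bind the period proteins in the repressor complex. Of 6 tested, 3 rose and 1 fell at each concentration, against 3.43%, 12.4% and 18.3% of all genes called at 0.1, 1 and 10 µM. CRY2 ENSDARG00000102403 went from 35.4 ± 2.16 CPM in DMSO to 60.5 ± 2.32 CPM at 0.1 µM (SD, n = 4 each), a rise of 0.77 ± 0.05 (edgeR adjusted p = 3.01e-09). CRY1 ENSDARG00000011583 rose by 0.74, 0.99 and 1.01 on the log2 scale with increasing concentration, and CRY1 ENSDARG00000045768 by 0.23, 0.31 and 0.40. The one that fell was cry3b, by 0.27, 0.32 and 0.21, a gene picked with its values in view. The fall at 0.1 µM was lost in 9 of 23 alternative fits, among them those without DMSO replicate 2, 3 or 4 and without 0.1 µM replicate 1, 2 or 3. The fall at 10 µM was lost in 7, among them those without DMSO replicate 2, 3 or 4 and without 10 µM replicate 2, 3 or 4. Medians of the list were 0.12, 0.16 and 0.27.

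Nuclear receptors of the NR1D and ROR families, which repress and activate the BMAL genes, formed a list of 10, of which 6 rose at 0.1 µM, 7 at 1 µM and 7 at 10 µM, against 2.3%, 7.13% and 9.9% of all genes. NR1D1 went from 31.5 ± 3.59 CPM in DMSO to 83.7 ± 7.19, 109 ± 3.91 and 112 ± 6.43 CPM (SD, n = 4 each). Its edgeR adjusted p was 5.95e-11 at 0.1 µM and 3.77e-13 at 1 µM. Another repressor, nr1d2a, rose by 0.80, 0.88 and 1.05 on the log2 scale and the activator rorcb by 0.64, 0.68 and 0.46. The list medians were 0.52, 0.57 and 0.48.

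Among PAR bZIP activators and their nfil3 antagonists, which act on D-box sequences, 9 of 10 genes passed the filter on low counts and 8 of these rose at each concentration, against 2.3%, 7.13% and 9.9% of all genes. The activator dbpb rose by 1.05, 1.30 and 1.44 on the log2 scale at 0.1, 1 and 10 µM, dbpa by 0.63, 0.80 and 0.59, and the nfil3-type gene nfil3-5 by 0.74, 0.82 and 0.89. The list medians were 0.47, 0.68 and 0.77. Activators and antagonists of the same sequence element were thus both higher.

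Of 16 genes for kinases, ubiquitin ligase parts and other regulators of period proteins or of CLOCK and BMAL, 4 rose at 0.1 µM, 5 at 1 µM and 8 at 10 µM, against 2.3%, 7.13% and 9.9% of all genes. The count at 1 µM was 3 without DMSO replicate 3, without 1 µM replicate 1, 3 or 4, and without the filter on low counts. It was also 3 without 1 µM replicates 1 and 2 and 0.1 µM replicate 3 together. The count at 10 µM was 5 without 10 µM replicate 2. The largest changes were in repressors of CLOCK and BMAL rather than in kinases: ciarta rose by 0.82, 0.85 and 1.01, ciartb by 0.98, 1.18 and 1.03, and BHLHE41 by 0.37, 0.65 and 0.83. The 3 casein kinase 1 genes of the list, named after their values were seen, had smaller values, with CSNK1D at 0.12, 0.18 and 0.22, csnk1e at 0.14, 0.13 and 0.25, and csnk1da at 0.03, 0.03 and 0.08. Of these CSNK1D was called at 1 and 10 µM and csnk1e at 10 µM (edgeR adjusted p = 0.0362, 0.00704 and 0.0252). List medians were 0.09, 0.13 and 0.15. When the fraction of reads falling outside genes was added to the fit, 2 of the 16 rose at 0.1 µM.

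The last list held 12 genes of the light response and the pineal gland, whose hormone melatonin is made at night. Of these 5 rose at 0.1 µM, 6 at 1 µM and 7 at 10 µM, against 2.3%, 7.13% and 9.9% of all genes, with medians of 0.23, 0.26 and 0.37. The light-inducible photolyase relative cry5 rose by 0.67, 0.75 and 0.60, cry-dash by 0.42, 0.52 and 0.46, and the arrestin gene ARR3 ENSDARG00000098475 by 0.62, 0.50 and 1.00. The pineal genes aanat2 and ASMT, of melatonin synthesis, had log2 fold changes of 0.22 and 0.17 at 1 µM (edgeR adjusted p = 0.506 and 0.692) and were named after their values were seen. Like every period gene, cry5 and cry-dash had their highest estimate at 1 µM, whereas ARR3 ENSDARG00000098475 had its lowest there. For per1a and per1b the difference between 1 and 10 µM was not called, and the calls of per2 and per3 were not stable. Differences of these list genes between 1 and 10 µM are not compared here.

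**Figure D5:**
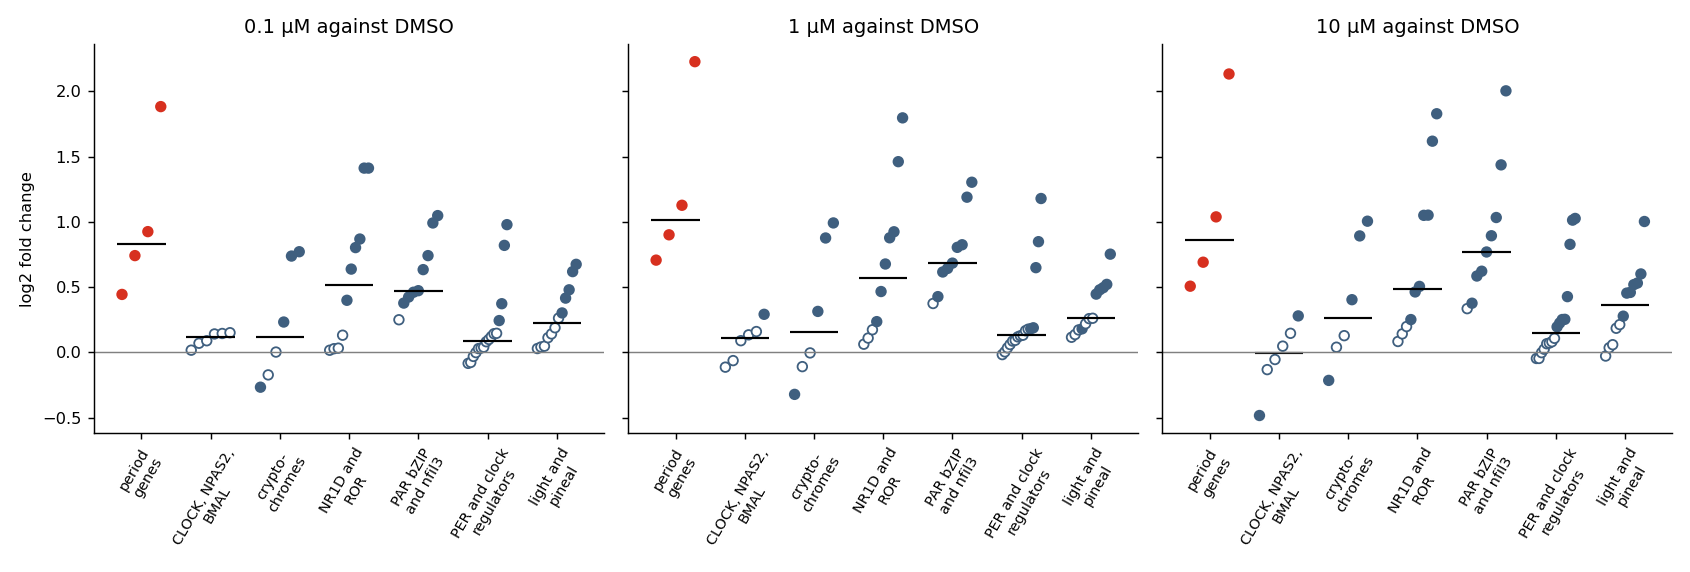
Log2 fold change against DMSO (vertical axis) of the 4 period genes and of every tested gene of the 6 clock lists, with 1 panel per concentration, filled points for adjusted p under 0.05 and a bar at each median. Activator genes have medians of 0.12, 0.11 and -0.00, while period genes have medians of 0.83, 1.01 and 0.86. Of the activators 1 rose at 1 µM, and 1 rose and 1 fell at 10 µM.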

How the data were processed

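Total RNA of whole larvae was prepared with a TruSeq stranded kit and Ribo-Zero Gold, per the labels' protocols. The deposited files hold whole-number read counts per Ensembl gene, without normalization, for 16 libraries. Trimmomatic, HTSeq and edgeR are the tools, and GRCz10 the genome build, listed in the submitters' processing notes. Reverse-strand, union-mode counting is stated in the file names, and for the aligner and gene annotation the name was not given in the sources used here. Reads that aligned to several places are tallied apart and enter no gene's count, which touches near-identical copies. The 5 summary lines of each file name no gene and were left out of library sizes.

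Groups and replicate numbers came from the labels. After filterByExpr and TMM scaling, a single model with a term for group was fitted to the 16 libraries (12 residual degrees of freedom) and tested by the robust quasi-likelihood method of edgeR (version 4.0.16, under R version 4.3.3). P-values were Benjamini-Hochberg adjusted over 21372 genes. The pipeline was tested on simulated counts. Ratios between members used a pseudocount of 0.5 and exact permutation tests. Replicate pairs differed by more than sampling noise, with chi-square per degree of freedom of 3.08 to 12.3. Gene names came from a table of Ensembl identifiers, and names that matched no gene are not analysed here. One further planned marker is not reported here. Alternatives were DESeq2 1.42.0, other scaling, no filter, a covariate, a replicate block, subsets of libraries and another pseudocount. Leaving out 3 libraries together was chosen after the data were seen.

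Named genes are the 4 members, up to 3 genes of each list with the smallest p at 1 µM against DMSO, and the 3 genes nearest in pattern to each member. Exceptions are stated as named after their values were seen. The members and lists were chosen with earlier results of these data known, so their counts carry no independent support. A planned search of promoter sequences for motifs was not run, and no gene coordinates are printed.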

Additional observations from a re-analysis of the deposited data

Results flagged for a closer look

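Each group of 4 libraries was checked for a library far from the others, for the levels of the period genes, their ratios and 3 measures of library size and alignment, 52 groups in all. Chance alone flags about 1 in 20 such groups, and 3 were flagged. The log2 ratio of per1a to per3 reads was -3.59 in DMSO replicate 2, against -3.93, -3.92 and -3.89 in the other DMSO libraries, so the flagged control had the most per1a relative to per3. The same ratio was -2.03 in 10 µM replicate 2, against -2.27, -2.27 and -2.26 in the other libraries of that group. The log2 ratio of per2 to per3 was -0.78 in 10 µM replicate 4, against -0.65 in each of the other 3.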

How the results depend on the processing

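The rise of the 4 period genes over DMSO had the same direction and passed the threshold in all 276 values from 23 alternatives. Of the 23, 16 each left out 1 library. Where that library was in neither group compared, the compared libraries stayed the same, so such fits are a weak check. Per1a ranged from 1.76 to 2.02 at 0.1 µM, 2.19 to 2.37 at 1 µM and 2.08 to 2.20 at 10 µM, and per3 from 0.40 to 0.49, 0.69 to 0.75 and 0.49 to 0.54. Of 276 values between concentrations, 251 kept their side of the threshold, 19 lost it, 5 gained it and 1 changed sign: per2 at 10 against 0.1 µM was 0.020 when the fraction of reads falling outside genes was added to the fit as a covariate. The cause of these shifts was not tested.

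From 0.1 to 1 µM 1 period gene was called. The count was 0 in the fit of only the 8 libraries compared and 4 with DESeq2, whose share over all genes is not given. It was 0 without the 3 libraries that stand apart and 0 to 2 when 1 library was left out. From 1 to 10 µM 2 were called. That count was 1 without the filter on low counts, 0 with the covariate, 0 without the 3 libraries and 0 to 2 when 1 library was left out. From 0.1 to 10 µM the count of 0 became 1 without 0.1 µM replicate 4 and was 0 to 1 when 1 library was left out. The ratio of per1b to per2 at 0.1 and at 1 µM alone (0.18 and 0.23) and of per2 to per3 at 10 µM alone (0.18) missed the threshold. With 4 libraries against 4 the exact test resolves little, so a miss does not show that a ratio stayed the same.

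Counts over all genes moved more. In the comparisons named with it below the covariate differed between groups, so those fits cannot separate it from concentration. At 0.1 µM against DMSO 734 became 207 with the covariate, 487 in the fit of 8 libraries, and 411, 455 and 1117 without DMSO replicate 3, DMSO replicate 4 and 0.1 µM replicate 4. At 1 µM 2650 became 1076 with the covariate and 1553 without the 3 libraries. At 10 µM 3921 became 2580 without 10 µM replicate 2. Between 0.1 and 1 µM 208 ranged from 7 to 630. Between 1 and 10 µM 1315 became 53 with the covariate, 286 without the 3 libraries and 528 at the lowest when 1 library was left out. Between 0.1 and 10 µM 4567 became 275 with the covariate and 2961 without 10 µM replicate 2.

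With the replicate number as a block, the counts of period genes called were unchanged (4, 4, 4, 1, 2 and 0), and the counts over all genes were 689, 2613, 3819, 222, 1227 and 4373. A check gave no clear sign that the numbers pair the samples, but it cannot exclude shared clutches or batches. Correlations of deviations between 24 pairs with the same number ran from -0.18 to 0.23, against -0.24 to 0.15 for other pairs. In all, 3 of 16 libraries correlated best with their own number.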
